A study of Mus musculus with 17 samples.

Results

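The sites of RUNX1 and CHD7 on DNA were set against each other in 416B mouse myeloid progenitor cells in which the leukaemia fusion CBFB-MYH11 (CM) had been induced. A reproducible site of a factor was an interval of merged peaks holding a peak of both replicate libraries, and sites of the 2 factors that overlapped by 1 bp or more were called shared. CM +Dox cells gave 3753 RUNX1 only sites, 3121 shared RUNX1 sites (3097 when counted as CHD7 sites) and 11038 CHD7 only sites. These 17912 sites are set against 90305 merged sites in all 16 peak lists of the study. Peaks in the gene bodies of Cbfb and Myh11, 7 in each RUNX1 list and 14 and 13 in the CHD7 lists, were left out.

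Every group was the 416B line carrying, by transposase, a plasmid for the tetracycline silencer and transactivator under an Ef1alpha promoter. In the CM groups a second plasmid placed a Cbfb-Myh11 type A cDNA, joined through F2A to mCherry, under a tetracycline-responsive element, and in the Control groups (construct Control-ATG) that plasmid lacked the fusion. CM +Dox and Control +Dox cells received doxycycline at 1 ug/ml for 24 hours, and CM -Dox and Control -Dox cells received none. The lines were grown from single sorted cells and chosen for their induction, so a line is clonal, and differences between Control and CM lines cannot be told apart from differences between clones. Each condition had 2 replicate libraries for each antibody. Nothing in the labels says that replicates came from separate cultures, so each p-value below is set against a spread among libraries that may be technical.

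RUNX1 is the DNA-binding subunit of a transcription factor that blood stem cells need to form, and its partner CBFB raises its affinity for DNA. The fusion, made by an inversion in acute myeloid leukaemia, keeps the part of CBFB that binds RUNX1 and joins it to the tail of smooth muscle myosin heavy chain. CHD7 is a chromodomain helicase that moves nucleosomes with energy from ATP and is known for its place at enhancers and active promoters.

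Promoter windows are printed as examples of sequence under sites of the 3 classes. They are the 200 bases upstream of 8 gene starts, chosen among the highest-ranked starts under a site of each class and not a complete ranking, from the RefSeq promoter table of GRCm38.p6, the assembly that mm10 denotes. Capitals mark the RUNX motifs TGTGGT and TGCGGT and the ETS core GGAAG, on either strand. The first 3 lay under RUNX1 only sites, the next 3 under shared sites and the last 2 under CHD7 only sites. These few windows do not stand for their classes, and motif shares over all windows of each class are given further below.
AI467606: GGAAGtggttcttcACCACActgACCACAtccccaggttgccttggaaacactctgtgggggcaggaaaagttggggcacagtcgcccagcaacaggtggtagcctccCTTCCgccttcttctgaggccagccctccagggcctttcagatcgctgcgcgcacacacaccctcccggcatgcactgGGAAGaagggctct
Brpf1: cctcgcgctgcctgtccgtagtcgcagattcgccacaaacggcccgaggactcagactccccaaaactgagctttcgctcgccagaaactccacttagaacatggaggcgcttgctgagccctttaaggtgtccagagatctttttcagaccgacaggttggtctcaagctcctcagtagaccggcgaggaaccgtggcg
Pim1: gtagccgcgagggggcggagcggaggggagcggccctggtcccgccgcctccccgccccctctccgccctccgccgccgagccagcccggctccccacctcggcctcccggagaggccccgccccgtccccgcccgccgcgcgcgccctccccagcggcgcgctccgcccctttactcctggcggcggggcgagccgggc
Slc35a1: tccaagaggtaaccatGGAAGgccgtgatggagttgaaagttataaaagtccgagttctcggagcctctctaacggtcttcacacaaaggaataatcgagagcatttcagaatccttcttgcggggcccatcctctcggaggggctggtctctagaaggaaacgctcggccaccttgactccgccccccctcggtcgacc
Dnpep: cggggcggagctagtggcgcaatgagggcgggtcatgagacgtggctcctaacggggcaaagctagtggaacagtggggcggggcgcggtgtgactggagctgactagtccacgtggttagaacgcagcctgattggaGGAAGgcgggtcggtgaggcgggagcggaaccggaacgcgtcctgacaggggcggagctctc
S100pbp: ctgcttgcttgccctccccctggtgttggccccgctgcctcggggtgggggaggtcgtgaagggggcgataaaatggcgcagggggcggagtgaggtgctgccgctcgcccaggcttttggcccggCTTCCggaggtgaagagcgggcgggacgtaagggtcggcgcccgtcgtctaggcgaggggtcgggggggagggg
Stoml1: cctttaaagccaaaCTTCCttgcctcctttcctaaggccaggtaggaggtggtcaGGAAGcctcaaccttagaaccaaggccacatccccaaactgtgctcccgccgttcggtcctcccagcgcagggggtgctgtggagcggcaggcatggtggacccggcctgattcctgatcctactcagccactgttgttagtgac
BC055324: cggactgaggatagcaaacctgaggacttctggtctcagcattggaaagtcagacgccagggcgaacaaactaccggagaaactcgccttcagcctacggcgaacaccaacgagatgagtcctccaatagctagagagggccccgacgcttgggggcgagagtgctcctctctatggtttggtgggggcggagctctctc
AI467606 (chr7:127091236-127091435, plus strand) was the window of the 8 with RUNX motifs, 2 of them, beside 3 ETS cores. Brpf1 (chr6:113306937-113307136, plus), a gene of a histone acetyltransferase complex, and Pim1 (chr17:29490585-29490784, plus), a serine/threonine kinase gene of cytokine signalling, had none of the motifs in these letters. Slc35a1 (chr4:34687439-34687638, minus), Dnpep (chr1:75317638-75317837, minus) and S100pbp (chr4:129189477-129189676, minus) had 1 ETS core each. BC055324 (chr1:163994797-163994996, minus) had none, and Stoml1 (chr9:58252964-58253163, plus) had 2 ETS cores. The 3 shared promoters were called by both factors in all 6 libraries of each antibody outside CM +Dox. Stoml1 was also called by RUNX1 in 5 of its 6 other libraries, while BC055324 was called by RUNX1 in none of the 6 and by CHD7 in all 6.

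The libraries differed in ways that bear on the classes. The CM +Dox RUNX1 lists held 8133 and 9703 peaks and the CHD7 lists 33448 and 31675, and read depth is unknown. The score of a peak is the authors' −log10 p-value, and it is used only as a percentile rank within its own list, with 100 the highest. CM +Dox RUNX1 replicate 1 ended at a p-value of 1e-07, replicate 2 at 1e-09, and all CHD7 lists at 0.01. With every RUNX1 list held to 1e-09 the classes had 3726, 3075 and 11084 sites, close to the numbers above. Of the RUNX1 peaks 85% and 71.1% overlapped a peak of the partner replicate, and of the CHD7 peaks 44.4% and 45.6% did. CHD7 lists of both fusion-construct conditions placed 7.85% to 8.29% of their peaks on chromosome 19 and 1.37% to 1.62% on chromosome 14, against 2.27% to 2.86% and 4.03% to 4.30% in the control lists. The library labelled Control -Dox RUNX1 replicate 1 has a +Dox tag in its peak names, and it was kept as labelled.

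CHD7 had many more reproducible sites than RUNX1 in CM +Dox, and most of the CHD7 sites overlapped no reproducible RUNX1 site. The CM +Dox RUNX1 lists ended at peak p-values of 1e-07 and 1e-09 and the CHD7 lists at 0.01. Site numbers and shares are therefore not comparable between the factors. Of 6874 RUNX1 sites, 45.4% (Wilson 95% interval 44.2% to 46.6%, which, like all such intervals here, covers counting error only) were shared with CHD7. Of 14135 CHD7 sites, 21.9% (21.2% to 22.6%) were shared with RUNX1. The same share of CHD7 sites was 44.9% in Control -Dox, 42.6% in Control +Dox and 41.2% in CM -Dox. The share of RUNX1 sites that were shared was 40.9%, 40% and 44.8% in those conditions. CM +Dox thus held the lowest share on the CHD7 side of the 4 conditions. On the RUNX1 side its share was the highest, but its interval overlapped that of CM -Dox (43.9% to 45.7%). List lengths differed between conditions, and differences at equal list length are given below. In the other 3 conditions RUNX1 only sites numbered 6289 to 6821, shared RUNX1 sites 4190 to 5536 and CHD7 only sites 5588 to 7725.

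The class of a site was not always the same in both replicates. Among the 3753 RUNX1 only sites, 1507 (40.2%) had a CHD7 peak in 1 of the CM +Dox CHD7 libraries and 2246 in neither. Among the 11038 CHD7 only sites, 1520 (13.8%) had a RUNX1 peak in 1 RUNX1 library and 9518 in neither. A site called RUNX1 only is therefore one at which CHD7 was not called in both libraries, and absence of a peak at this unknown depth is not absence of the factor.

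Pairs of libraries with the same replicate number gave 1 value each for the tests between conditions. RUNX1 peaks overlapped a CHD7 peak of their partner list in 45.9% and 61.0% of cases in the CM +Dox pairs, and in 40.8% to 61.4% in the other 6. The groups overlapped, and the difference of 3.92 percentage points did not pass (exact permutation test over 28 choices, p = 0.536; Benjamini-Hochberg adjusted p = 0.595 over 10 tests). With the same number of peaks in every list of an antibody the difference turned to -6.26 (exact p = 0.143). CHD7 peaks overlapped a RUNX1 peak in 11.2% and 18.6% of cases in the CM +Dox pairs and in 20% to 36.0% in the other 6. Both CM +Dox values lay below all others, by -15.7 percentage points on average (p = 0.0357 by the exact permutation test, which cannot go lower here; adjusted p = 0.0595). At equal list length that difference was -3.34 (exact p = 0.143). The pair with the next lowest value, Control +Dox replicate 2 at 20%, also had a long CHD7 list of 32445 peaks. Of the 10 exact permutation tests of this kind, 6 reached the smallest p that 28 choices allow, and none passed 0.05 after adjustment (lowest adjusted p = 0.0595). To pass, more than these 6 would have had to reach that smallest p.

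RUNX1 only sites lay at gene starts more often than the other classes. A start site is the first base of a RefSeq transcript, known here for 17492 of 21887 protein-coding genes and for none on chromosome 18, whose sites were left out of these measures. Within 1 kb of a start lay 1678 of 3648 RUNX1 only sites (46.0%, 44.4% to 47.6%), 33.0% (31.3% to 34.7%) of shared RUNX1 sites and 18% (17.3% to 18.8%) of CHD7 only sites. The median distance to a start was 2783.5 bp, 12386.5 bp and 20284 bp. Sites more than 50 kb from a start made up 13.0% of RUNX1 only sites at 50 to 200 kb and 6.11% beyond, against 21.4% and 9.63% of CHD7 only sites. Inside protein-coding genes lay 75.6%, 66.1% and 61.8% of the 3 classes in the same order.

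**Figure D1:**
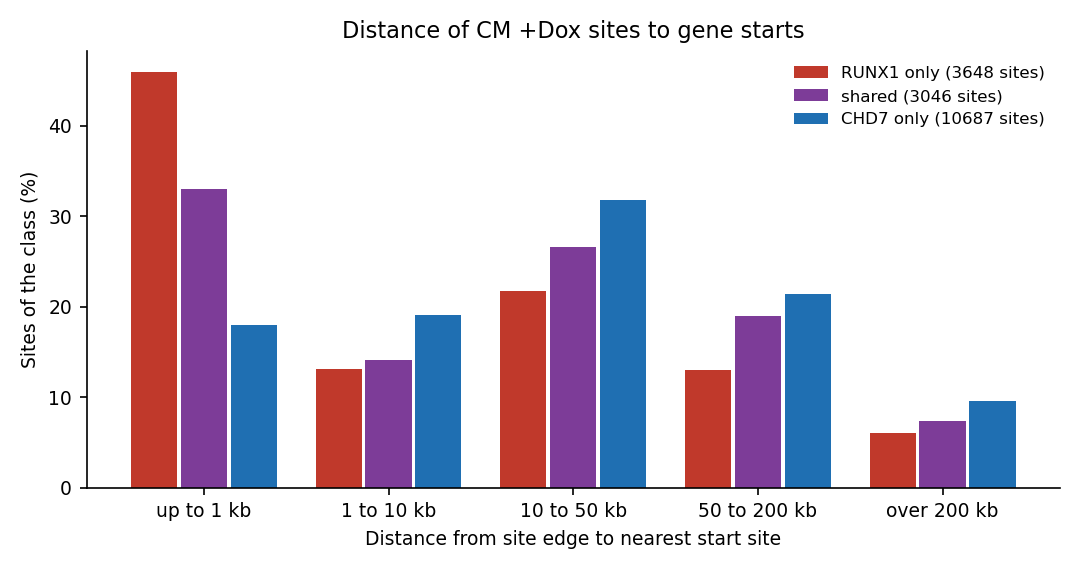
Share of CM +Dox sites (y axis, percent of the class) by distance from the site edge to the nearest start site (x axis, 5 bins), with bars for RUNX1 only, shared (as RUNX1 sites) and CHD7 only sites. RUNX1 only sites have the highest bar up to 1 kb (46.0%) and the lowest in each bin beyond it, and CHD7 only sites have the reverse order.

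In the other conditions the 3 classes were closer together in this respect. RUNX1 only sites were at starts in 26.0%, 26.0% and 28.5% of cases in Control -Dox, Control +Dox and CM -Dox, and shared RUNX1 sites in 29.1%, 27.1% and 25.6%. CHD7 only sites were at starts in 23.7%, 25.8% and 20.4%. By library pair, the start share of shared minus that of RUNX1 only RUNX1 peaks was -12.3 and -11.7 percentage points in CM +Dox and -4.39 to 4.06 in the other 6 pairs. These groups did not overlap, and their means were -10.5 apart (p = 0.0357 by exact permutation; adjusted p = 0.0595). Among CHD7 peaks, shared minus CHD7 only was 23.1 and 17.4 percentage points in CM +Dox and 6.72 to 15.6 elsewhere, which put the means 9.08 apart (p = 0.0357 by exact permutation; adjusted p = 0.0595). It came to 15.7 when the lower-scoring peaks of each list, those under its median, were dropped, and to 13.6 at equal list length.

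**Figure D2:**
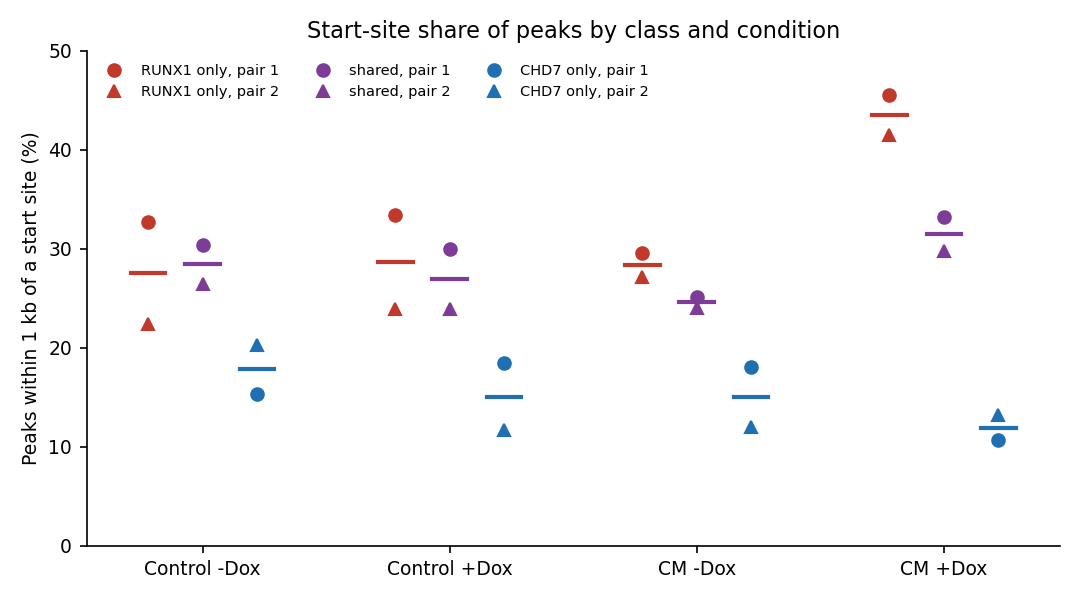
Percent of peaks within 1 kb of a start site (y axis) in each condition (x axis), for RUNX1 only and shared RUNX1 peaks and CHD7 only CHD7 peaks; circles and triangles are library pairs 1 and 2 and lines their means. RUNX1 only peaks stand at 45.5% and 41.4% in CM +Dox, above all other points.

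Seen from the start sites, CHD7 was shared with RUNX1 more often at starts than away from them, and RUNX1 the reverse. Of CM +Dox CHD7 sites up to 1 kb from a start, 34.7% (33.0% to 36.4%) were shared, against 18.6% (17.9% to 19.3%) further away. Of RUNX1 sites 37.5% (35.6% to 39.3%) at starts and 50.9% (49.3% to 52.4%) further away were shared. More than 50 kb from a start the RUNX1 share was 53.5% and the CHD7 share 19.2%. In Control -Dox the RUNX1 shares were 43.8% at starts and 40% away, and the CHD7 shares 50.5% and 42.9%. Control +Dox had RUNX1 shares of 41.0% and 39.6% and CHD7 shares of 44.4% and 41.9%. CM -Dox had RUNX1 shares of 42.2% and 45.8%, in the same order as CM +Dox, and CHD7 shares of 47.5% and 39.3%. The number of RUNX1 sites away from starts was 4011 in CM +Dox and 8164 in Control -Dox, while at starts it was 2683 and 3067. Whether list length or read depth has a part in these shares was not tested.

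By rank of score, the classes separated on the CHD7 side and little on the RUNX1 side. The median rank of RUNX1 at RUNX1 only sites was 58.6 and at shared sites 58.7. By replicate it was 58.4 and 61.3 at RUNX1 only sites and 55.8 and 65.7 at shared sites, so the replicates differed in order. The top 10% of the RUNX1 lists held 13.0% and 16.7% of shared RUNX1 sites by replicate, and 10.8% and 11.9% of RUNX1 only sites. CHD7 at shared sites had a median rank of 77.3, against 59.7 at CHD7 only sites. The top 10% of the CHD7 lists held 33.2% and 36.9% of shared CHD7 sites by replicate, and 17% and 14.9% of CHD7 only sites. Split into 5 equal groups by CHD7 rank, the share with RUNX1 went from 9.73% of the lowest group through 17%, 18% and 25.8% to 39.0% of the highest. The same split of RUNX1 sites gave 48.2%, 43.5%, 42.4%, 44.7% and 48.2%, lowest group first. In Control -Dox the RUNX1 groups gave 41.1%, 32.9%, 34.2%, 40.3% and 56.0%, with the highest group apart from the rest.

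**Figure D3:**
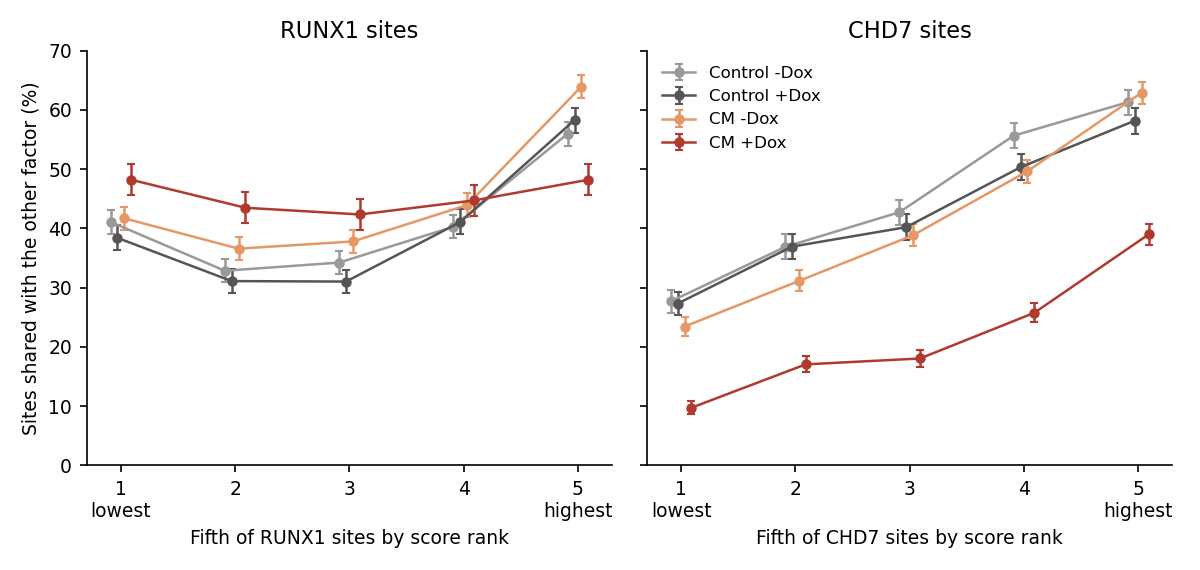
Percent of reproducible sites shared with the other factor (y axis) in 5 equal groups of the site's own score rank (x axis, lowest to highest), for RUNX1 sites (left) and CHD7 sites (right); lines are the 4 conditions and bars Wilson 95% intervals. The CM +Dox line is near level for RUNX1 (42.4% to 48.2%) and climbs for CHD7 from 9.73% to 39.0%, below the other conditions.

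The rank difference of RUNX1 between shared and RUNX1 only peaks was -2.16 and 5.06 points in the CM +Dox pairs and 10.8 to 15.1 in the other 6. The groups did not overlap, and their means were -11.0 apart (p = 0.0357 by exact permutation; adjusted p = 0.0595). The rank difference of CHD7 between shared and CHD7 only peaks was 27.2 and 30.7 points in CM +Dox and 20.7 to 33.3 elsewhere (difference 1.12; p = 0.893 by exact permutation). Among RUNX1 only sites the start share was 50.7% in the lowest of 5 groups of RUNX1 rank and 38.9% in the highest. Among CHD7 only sites it was 14.2% to 15.5% in the lower 4 groups of CHD7 rank and 35.6% in the highest.

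Shared sites were wider than single-factor sites for both factors. A wider interval meets the 1 bp overlap rule more easily, so width is tied to the definition of the classes. Median site width was 359 bp for RUNX1 only and 407 bp for shared RUNX1 sites, and 795 bp for shared and 578 bp for CHD7 only sites on the CHD7 side. In 2997 shared places with 1 site of each factor, the centres lay a median of 133 bp apart, and 60.7% of the RUNX1 sites lay wholly inside the CHD7 site. As log2 ratios of median peak widths, shared RUNX1 peaks exceeded RUNX1 only peaks by 0.15 and 0.17 in CM +Dox and by 0.27 to 0.30 in the other pairs. The difference of -0.12 came from groups that did not overlap (p = 0.0357 by exact permutation; adjusted p = 0.0595). For CHD7 the ratios were 0.75 and 0.70 in CM +Dox and 0.51 to 0.75 elsewhere, or 0.12 more on average (p = 0.179 by exact permutation). RUNX1 only sites lay a median of 24196 bp from the nearest CHD7 site, and CHD7 only sites 41328.5 bp from the nearest RUNX1 site.

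Neighbouring sites were counted for each class. Another site of the same factor lay within 10 kb of 23.1% of RUNX1 only sites, 27.9% of shared RUNX1 sites, 49.1% of shared CHD7 sites and 45.0% of CHD7 only sites. CHD7 only sites chained within 10 kb formed 493 clusters of 3 or more, holding 1863 sites (16.9%), against 31 such clusters of RUNX1 only sites (100 sites, 2.66%) and 39 of shared sites (126 sites, 4.04%). The CHD7 lists are longer, so counts of neighbours are not comparable between the factors. Within the CHD7 lists, shared minus CHD7 only peaks with a neighbour was 8.05 and 5.24 percentage points in CM +Dox and -3.53 to 3.46 elsewhere, groups that did not overlap (difference 7.55; p = 0.0357 by exact permutation; adjusted p = 0.0595). Within the RUNX1 lists the values were 4.66 and 4.17 in CM +Dox and 3.96 to 8.91 elsewhere (difference -1.47; p = 0.357 by exact permutation).

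The largest clusters of each class are described by the genes they overlapped or lay nearest to. The CHD7 only cluster with most sites, 21, covered the histone genes between H1f3 and H4c8 (chromosome 13, 23517121 to 23598442), which package DNA, and a second of 13 sites lay at H1f1, H3c1 and their neighbours (chromosome 13, 23732587 to 23769293). In Control -Dox the first of these intervals held 9 shared and 13 CHD7 only sites, and in CM +Dox it held none shared. Near-identical histone copies lie there, and no source used here says how reads were placed among such copies, so these counts are uncertain. The other 3 of the 5 largest were 18 sites at Mbnl1, a splicing regulator gene (chromosome 3, 60459108 to 60515343), with 15 CHD7 only sites in Control -Dox, and 12 and 11 sites at Prkg1 on chromosome 19. Shared sites clustered near Ccr1, a chemokine receptor gene (4), at Zfp36, whose product destabilises cytokine mRNAs (4), at the sphingomyelin synthase gene Sgms1 on chromosome 19 (4), and 65.6 kb from Anxa3 (4). RUNX1 only sites clustered 95.1 kb from Klf14 (7 sites), where the highest mean rank was 18.4. They also clustered at Nfe2, a megakaryocyte and erythroid factor gene (4 sites, best rank 99.2), at Ier3 with Flot1 and Tubb5 (4), at Midn (4) and at Pebp4 (3).

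The sites of highest rank were listed for each class, and the classes share no site by definition. The 10 RUNX1 only sites of highest rank had mean ranks of 99.5 to 99.8, the last of them in Cd276 (chromosome 9, 58541729 to 58542295). The first was 1.81 kb from Kcnn4, a calcium-activated potassium channel gene (chromosome 7, 24387024 to 24387647, rank 99.8). Next came Dmwd (chromosome 7, 19077718 to 19078219), 2 sites in or near Pebp4, and sites in or near Aldh4a1, Egflam, the matrix metalloproteinase gene Mmp9 (chromosome 2, 164942794 to 164943348), Atg9a and Cbfa2t3, a corepressor gene of blood progenitors (chromosome 8, 122700614 to 122701161). RUNX1 was called at all 10 in all 6 other RUNX1 libraries. CHD7 was called there in 0 to 6 of its 6 other libraries, in none at Cbfa2t3 and Cd276 and in all 6 at Mmp9.

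The 10 shared sites of highest rank, by the mean over RUNX1 and CHD7 ranks, were called by both factors in all 12 other libraries. They lay in Exoc6 (chromosome 19, 37561392 to 37562041), Sptbn1, a spectrin gene (chromosome 11, 30166143 to 30166618), Cc2d2b, Ptpre, a tyrosine phosphatase gene, Hecw2, Dapp1, an adaptor of lymphocyte signalling, and Rnf216. Of the other three, one lay 144 kb from Reep3 (chromosome 10, 66864159 to 66864966), one 5.45 kb from Fkbp1a and one 0.846 kb from Atp6v0a1. All 10 lay more than 1 kb from a start, the nearest at Atp6v0a1 with 1822 bp. Their RUNX1 ranks by library ran from 97.3 at Rnf216 to 99.99 at Reep3, and their CHD7 ranks from 95.8 at Hecw2 to 98.6 at Fkbp1a.

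The 10 CHD7 only sites of highest rank lay on gene starts in 8 of the 9 cases where a start could be measured. They were at Arhgef1, Stoml1, BC055324 with Mettl18, Ift46, a ciliary transport gene, Diaph1, Ddx18, Aars2, a mitochondrial alanyl-tRNA synthetase gene, Shcbp1, Tomm22, a subunit of the mitochondrial import pore, and Arl14ep. Diaph1 lies on chromosome 18, and for Shcbp1 the nearest start in the table was 166051 bp away. CHD7 was called at all 10 in all 6 other CHD7 libraries. RUNX1 was called in all 6 of its other libraries at Arhgef1 and Ift46, in 5 at Stoml1, in 1 to 4 at Ddx18, Tomm22, Aars2, Shcbp1 and Arl14ep, and in none at BC055324 and Diaph1. With the stricter rule that the other factor has no peak in either CM +Dox library, 5 of the 10 RUNX1 only and 4 of the 10 CHD7 only sites stayed in their class.

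The CM +Dox sites were also looked up in the 12 libraries that did not define them. RUNX1 was called at 84.1% ± 8.57 (SD, n = 2) of RUNX1 only sites in Control -Dox, 80.9% ± 10.7 (n = 2) in Control +Dox and 87.9% ± 2.11 (n = 2) in CM -Dox. At the shared RUNX1 sites it was called in 87.9%, 85.6% and 92.6% on average, and CHD7 in 78.6%, 77.6% and 85.9%. CHD7 was called at 53.7% ± 5.41 (n = 2) of CHD7 only sites in Control -Dox, 52.6% ± 3.69 (n = 2) in Control +Dox and 67.2% ± 11.8 (n = 2) in CM -Dox. By library these ran from 49.9% to 75.6%, with the highest in the longest list, CM -Dox replicate 2. RUNX1 was called at 14.8% to 21.8% of CHD7 only sites in those 6 libraries, against 4.06% and 9.79% in CM +Dox, where the class definition holds it low.

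Classed again in each condition, shared sites had the largest share that kept their class. Of the 3121 shared RUNX1 sites, 63.6% were also shared in Control -Dox, 60.6% in Control +Dox and 74.0% in CM -Dox. Of the RUNX1 only sites 58.4%, 53.5% and 62.9% were RUNX1 only there, and 17.7%, 17.2% and 20.7% were shared. Of the CHD7 only sites 30.5%, 29.4% and 41.3% were CHD7 only there, and 56.4%, 59.4% and 44.3% had no reproducible site of either factor. RUNX1 only sites at starts had no reproducible site in Control -Dox in 30.6% of cases, and those away from starts in 15.9%. For CHD7 only sites the order was the other way, with 31.8% at starts and 61.3% away from them.

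The classes were spread unevenly over chromosomes in the fusion-construct cells. On chromosome 19 RUNX1 sites were shared in 71.6% of 352 cases (66.7% to 76.0%) in CM +Dox, 67.7% in CM -Dox, 35.1% in Control -Dox and 33.8% in Control +Dox. On chromosome 14 they were shared in 23.4% of 145 cases (17.3% to 31.0%) in CM +Dox, 27.3% in CM -Dox, 43.8% in Control -Dox and 40.7% in Control +Dox. Chromosome 19 held 8.33% of CHD7 only and 8.07% of shared RUNX1 sites in CM +Dox, but 2.66% of RUNX1 only sites. The cause of these differences was not tested. Without both chromosomes, 44.5% of RUNX1 sites and 22.1% of CHD7 sites were shared, and RUNX1 only, shared and CHD7 only sites were at starts in 45.9%, 32.8% and 18.5% of cases.

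**Figure D4:**
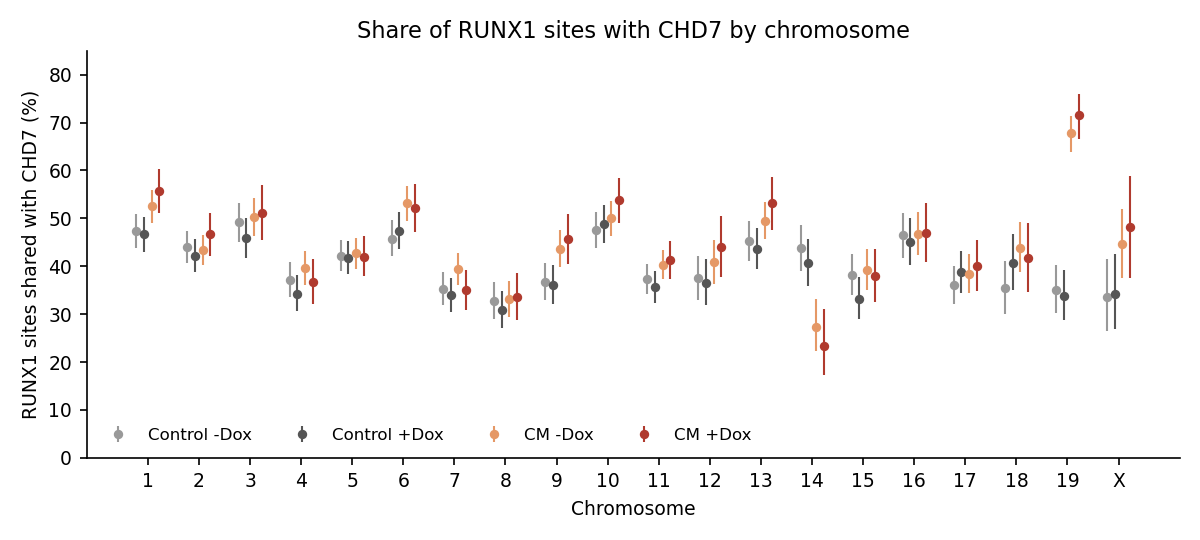
Percent of reproducible RUNX1 sites shared with CHD7 (y axis) on each chromosome (x axis) in the 4 conditions, with Wilson 95% intervals as bars. On chromosome 19 both CM conditions stand at 67.7% and 71.6% and the controls at 33.8% and 35.1%, and on chromosome 14 the order is the reverse.

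The promoters under the sites were compared by base composition and motifs. Windows of 300 bases, 250 before and 50 after a start, numbered 21238, of which 1887 (8.89%) lay under a RUNX1 only site, 1120 (5.27%) under a shared and 1403 (6.61%) under a CHD7 only site. The median number of CpG per 100 bases was 8.33, 8 and 6.67 in these classes and 2.67 under none. TGTGGT, on either strand, was in 11.6%, 12.6% and 12.5% of the windows of the 3 classes, against 15% of all windows. The variant TGCGGT was in 12.1%, 14.3% and 8.62%, against 7.43% of all. GGAAG was in 75.6%, 82.1% and 80.4% (72.4% of all), the E-box CACGTG in 12.1%, 9.11% and 8.77% (7.84% of all) and the AP-1 motif TGAGTCA in 2.28%, 3.30% and 3.71% (4.66% of all). Only motifs were counted, so a match is not a binding site. Windows were also split into 3 equal groups by CpG. With most CpG, TGTGGT was in 9.46%, 9.73% and 10.2% of the classes and 8.14% of all. In the middle group it was in 15.8%, 16.1% and 13.6% (14.6% of all). With least CpG it was in 8 of 22 (36.4%, 19.7% to 57.0%), 13 of 37 (35.1%, 21.8% to 51.2%) and 23 of 124 (18.5%, 12.7% to 26.3%), against 22.2% of all. RUNX1 only and shared windows were above all windows in each group, and CHD7 only windows in the group with most CpG alone. In each group, however, the 95% intervals of all 3 classes reached the share of all windows. With most CpG they were 7.99% to 11.2% for RUNX1 only and 7.78% to 12.1% for shared windows. In the middle group they were 13.0% to 19.1% and 12.7% to 20.3%. Against all windows, which include those of the classes, these differences are thus within counting error. With most CpG, windows under no site had TGTGGT in 7.14% of cases (6.41% to 7.94%). There the intervals of RUNX1 only and CHD7 only windows (8.14% to 12.8% for CHD7 only) lay above that range, and that of shared windows overlapped it. In the middle group and with least CpG, all 3 classes overlapped the interval of windows under no site. Windows away from starts could not be searched, since no genome sequence was used here.

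Genes were assigned to a class when a site lay in the body or within 5 kb of either end. Of 21885 protein-coding genes, 16% had a RUNX1 only site, 10.9% a shared site and 24.8% a CHD7 only site in CM +Dox, 60.6% had none and 296 had all 3 classes. All 3 classes together were at 1.35% of genes. Control -Dox had the 3 classes at 21.5%, 15.2% and 16.7% of genes, Control +Dox at 20.2%, 13.4% and 16.7%, and CM -Dox at 22.4%, 16% and 19.6%. Ranks given for genes below are those of the site's RUNX1 peaks for RUNX1 only and shared sites and of its CHD7 peaks for CHD7 only sites. Long genes collect more sites, and gene length was not adjusted for in the counts below.

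The genes with most CHD7 only sites lay partly on chromosome 19. Prkg1, a cGMP-dependent kinase gene of 1201 kb on chromosome 19, had 79 CHD7 only sites in CM +Dox, 44 in CM -Dox, 3 in Control -Dox and 6 in Control +Dox. Gnaq, a G protein subunit gene on the same chromosome, had 26 in each of CM +Dox and CM -Dox, and 2 and 3 in the controls. Off that chromosome, Psd3 had 27 (9, 13 and 12 in Control -Dox, Control +Dox and CM -Dox), Mbnl1 24 (20, 19 and 23) and Syne1, a nuclear envelope gene, 15 (7, 5 and 7). Most RUNX1 only sites were at Gse1 (7), Fnbp1 (6), and with 5 each at Zfpm1, the GATA cofactor gene FOG1, Ralgps1 and Ccnd3, a G1 cyclin gene. Zfpm1 had 5 RUNX1 only sites in each of the 4 conditions. Shared sites numbered 10 at Sgms1 and 5 each at Arhgap6, Nt5c2 and Cubn, with Sgms1 and Nt5c2 on chromosome 19.

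Haematopoietic transcription factor genes held sites of all 3 classes. Of 24 such genes 9 had a RUNX1 only, 10 a shared and 13 a CHD7 only site in CM +Dox, where the shares over all genes were 16%, 10.9% and 24.8%, and 5 had none. In Control -Dox the numbers were 19, 8 and 9, in Control +Dox 17, 10 and 9, and in CM -Dox 17, 12 and 11. All-gene shares were 21.5%, 15.2% and 16.7% in Control -Dox and 20.2%, 13.4% and 16.7% in Control +Dox. In CM -Dox they were 22.4%, 16% and 19.6%. Runx1 itself (chromosome 16, 92601466 to 92826074) had 3 RUNX1 only sites, 2 shared and no CHD7 only site, against 4, 5 and 1 in Control -Dox and 5, 4 and 2 in CM -Dox. Mef2c, a factor of myeloid and lymphoid progenitors, had 3 shared and 6 CHD7 only sites, and Etv6 had 1 RUNX1 only, 1 shared and 5 CHD7 only. Nfe2 had 4 sites and Zfpm1 had 5, all of them RUNX1 only. Ikzf1 with 4, Ikzf2 with 5 and Myb with 2 had CHD7 only sites and no other.

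RUNX cofactor genes had a RUNX1 only site in 10 of 18 cases, a shared site in 7 and a CHD7 only site in 7. The shares over all genes were 16%, 10.9% and 24.8%. Cbfa2t3 (ranks up to 99.5) held 2 RUNX1 only sites and 1 shared. Runx2, a RUNX paralogue of bone, held 1 RUNX1 only, 3 shared and 7 CHD7 only sites, and Tle4, a Groucho corepressor gene on chromosome 19, 2 shared and 8 CHD7 only. Ncor1 had 2 CHD7 only sites in CM +Dox and 1 shared site in each of the other 3 conditions. Chromatin remodeller genes had the 3 classes in 10, 6 and 12 of 22 cases. Chd7 (chromosome 4, 8690402 to 8868449) had 3 CHD7 only sites and no RUNX1 site. Control -Dox and Control +Dox each had 2 RUNX1 only and 1 CHD7 only there, and CM -Dox 2 RUNX1 only and 2 shared. Its relative Chd2 had 1 RUNX1 only, 2 shared and 6 CHD7 only sites.

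Genes of myeloid and erythroid differentiation were without a site about as often as all genes, of which 60.6% had none. Of 25 myeloid differentiation genes 5, 5 and 3 had the 3 classes and 15 had none. Over all genes the 3 classes were at 16%, 10.9% and 24.8%. Prtn3, the neutrophil protease 3 gene, and Cebpd had shared sites of rank 96.3 and 91.9, and Itgam, the CD11b gene, had 2 CHD7 only sites. Csf1r, the macrophage growth factor receptor gene, had 1 RUNX1 only and 1 CHD7 only site. Of 20 megakaryocyte and mast cell genes 4, 4 and 8 had the classes, with Selp, the P-selectin gene, holding a shared site of rank 99.9, and Itga2b and Itgb3, the platelet integrin genes, 2 RUNX1 only sites each. Erythroid genes had them in 3, 0 and 1 of 11 cases, with RUNX1 only sites at Klf1, Epor and Tfrc and a CHD7 only site at Hbb-bt, and 7 had none.

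Signalling and cell cycle genes held all 3 classes. Of 20 cytokine and signalling genes 10, 8 and 11 had them, where the shares over all genes were 16%, 10.9% and 24.8%. Dusp6, a phosphatase gene of the MAP kinase pathway, had 2 shared sites, Socs3, a cytokine suppressor gene, 1 RUNX1 only site, and Jak2 (chromosome 19) 6 CHD7 only sites. Of 20 cell cycle genes 9, 6 and 8 had them. Control -Dox had 14, 5 and 6, with all-gene shares of 21.5%, 15.2% and 16.7%. Control +Dox had 16, 5 and 9, with all-gene shares of 20.2%, 13.4% and 16.7%. CM -Dox had 13, 7 and 5, with all-gene shares of 22.4%, 16% and 19.6%. Ccnd3 had 5 RUNX1 only and 1 shared site, E2f2 2 RUNX1 only sites, and Myc 1 CHD7 only site, where it had 1 shared site in CM -Dox and 1 RUNX1 only site in each control condition. Immediate-early genes, which respond first to growth signals, had RUNX1 only sites in 8, shared in 2 and CHD7 only in 7 of 16 cases, with Fos and Ier3 RUNX1 only and Fosl1 (chromosome 19) and Jun CHD7 only. Apoptosis and p53 genes had 6, 5 and 7 of 14. Bbc3, the PUMA gene, had 3 RUNX1 only sites, and Trp53 1 shared and 1 CHD7 only.

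Ribosomal protein genes held all 3 classes. Of 27 cytosolic ribosomal protein genes 6 had a RUNX1 only, 7 a shared and 15 (55.6%) a CHD7 only site. The all-gene shares were 16%, 10.9% and 24.8%. Control -Dox had 7, 15 and 6, with all-gene shares of 21.5%, 15.2% and 16.7%. Control +Dox had 8, 10 and 8, with all-gene shares of 20.2%, 13.4% and 16.7%. CM -Dox had 8, 13 and 8, with all-gene shares of 22.4%, 16% and 19.6%. The highest-ranked CHD7 only sites were at Rps24 (99.9), Rpl5 (99.8) and Rpl32 (99.7), and Rps19 had a shared site. Of 18 mitochondrial ribosomal protein genes 4, 3 and 8 had the classes, and of 17 leukaemia-mutated epigenetic regulator genes 6, 2 and 9, with Asxl1 and Idh1 each holding 1 RUNX1 only and 3 CHD7 only sites. Of 17 lymphoid genes 2 (11.8%), 0 and 4 (23.5%) had the classes, near the all-gene shares of 16% and 24.8% for RUNX1 only and CHD7 only. The classes were at 1, 0 and 1 of 16 neural crest and inner ear genes (Tfap2a and Snai2), and at 1, 0 and 2 of 12 liver genes (F9 with both and Apob with CHD7). The CHD7 only site counted for the lymphoid gene Cd79a is the one at the start of its neighbour Arhgef1.

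**Figure D5:**
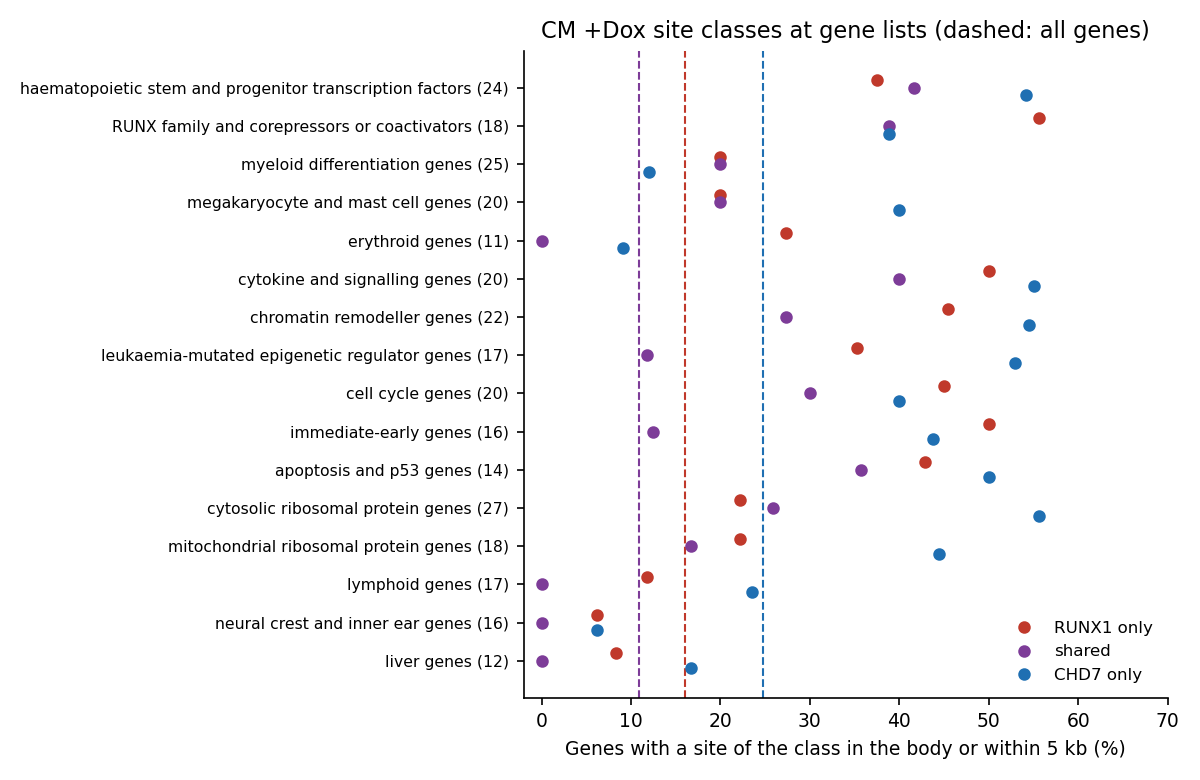
Percent of the genes of each list (y axis, number of genes in brackets) with a RUNX1 only, shared or CHD7 only site in CM +Dox (x axis); dashed lines are the shares over all 21885 protein-coding genes. The lists of transcription factor, signalling and ribosomal protein genes lie mostly to the right of the lines, and the lymphoid, neural crest and liver lists to their left.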

How the data were processed

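ChIP-seq peak lists of RUNX1 and CHD7 were used, 1 per library, 16 in all; an IgG sample, the last of 17 the labels name, was not analysed here. Bowtie2 2.0.6, MACS2 2.0.10 and the mm10 build are named per the submitters' processing notes. No source used here gives the background library, the read filters or the depths. Each list belongs to 1 sample. The authors deposited for each peak a score that is the −log10 of its p-value, checked by its lowest value against the threshold in the peak names. It was used only for ranks and filters within a list, since list lengths differ with unknown depth.

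The peaks (chromosomes 1 to 19, X, Y) were merged and classed with Python 3.11.15, numpy 2.4.6, pandas 2.3.3 and scipy 1.17.1. Genes and starts came from the RefSeq tables of GRCm38.p6; exons, introns and UTRs were not analysed here. Tests used 1 value per same-numbered library pair, CM +Dox (2) against the other 6, by two-sided exact permutation over 28 choices with Benjamini-Hochberg adjustment over 10 tests; 2 pairs against 2 cannot go below 0.333, so differences between classes within CM +Dox are described, not tested. Code was tested on simulated data. Members and gene lists (16 lists, 295 of 296 genes matched) were chosen with earlier results of these data known.

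Named were, per class, the 10 sites of highest mean rank, the 5 largest clusters, the 5 genes with most sites and up to 3 promoters, up to 4 shared and 3 other genes per list, and Runx1 and Chd7. Alternatives were a higher score, equal list length, a stricter overlap or class definition, other distances, other pairings and each pair left out. Either gene end, no chromosomes 14 and 19, and RUNX1 at 1e-09 throughout were chosen after seeing the data. A few items that these rules name are not reported here.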

Additional observations from a re-analysis of the deposited data

Results flagged for a closer look

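The sharing of RUNX1 peaks on chromosome 14 moved in opposite directions in the 2 kinds of cell line. The share of RUNX1 peaks overlapping a CHD7 peak on chromosome 14, minus that on chromosomes other than 14 and 19, was -17.9 ± 1.29 percentage points in the 4 CM construct pairs (SD, from -19.6 to -16.6). In the 4 control construct pairs it was 3.04 ± 2.20 (from 0.295 to 5.61). All 4 pairs of one group lay below 0 and all 4 of the other above it, and the difference was not tested. The CM construct values came from 169 to 360 peaks on that chromosome and were as large without doxycycline (-16.6 and -18.0) as with it (-17.3 and -19.6).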

How the results depend on the processing

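No test passed an adjusted p of 0.05 in any setting. With replicate number as a block, or with a CM +Dox pair left out, none could. With a pair of another condition left out, every test would have had to reach the smallest p there. The lack of calls in these settings therefore says little. The tests at the smallest p kept their direction throughout. For RUNX1 peaks overlapping CHD7 the difference turned to -6.26 at equal list length, and for RUNX1 clustering to 0.51. For the CHD7 rank it turned to -1.77 with RUNX1 replicate 1 paired with CHD7 replicate 2 and the reverse, and to -0.46 with reproducible peaks alone. The cause was not tested.

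Leaving out each pair in turn, the differences ran from -3.59 to 11.4 for RUNX1 peaks overlapping CHD7 (-3.59 without CM +Dox replicate 2) and from -0.65 to 2.89 for the CHD7 rank (-0.65 without CM +Dox replicate 2 and -0.31 without Control +Dox replicate 1). They ran from -19.4 to -12.0 for CHD7 peaks overlapping RUNX1, from -11.0 to -9.34 and from 6.22 to 11.9 for the start shares of RUNX1 and CHD7 peaks, and from -14.7 to -7.43 for the RUNX1 rank. For widths they ran from -0.13 to -0.11 and from 0.09 to 0.14, and for clustering from -1.86 to -0.87 and from 6.15 to 8.95.

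Without the peaks under their list's median score there were 2380 RUNX1 only, 1059 shared RUNX1, 1053 shared CHD7 and 6553 CHD7 only sites. At equal list length, with fewer peaks by construction, there were 1889 and 1856 shared and 5300 CHD7 only sites, and RUNX1 only sites rose to 4310. With no peak of the other factor in either library, 2246 RUNX1 only sites remained. Without replicate 1 or 2, classes from a single pair of libraries held 3787 to 4396 RUNX1 only, 3737 to 5916 shared RUNX1, 3754 to 5898 shared CHD7 and 25777 to 29694 CHD7 only peaks.

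With replicate number as a block the differences were the same by construction (such as -15.7 for CHD7 peaks overlapping RUNX1). The exact permutation test then had 16 choices and cannot go below p = 0.0625, which is above 0.05 before adjustment. No call was possible in this setting, so it cannot show whether the calls depend on the block. Deviations of same-numbered pairs correlated from -0.08 to 0.61 over the 10 measures, not above 0.1 in every case. Some measures differed the same way between replicates in every condition, such as RUNX1 peaks overlapping CHD7, higher in replicate 2 throughout. Others did not, such as CHD7 peaks overlapping RUNX1. Correlations over so few measures cannot settle whether same-numbered libraries share more than a number.

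Read depth is unknown, so a missing peak sets no limit on binding.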
